A study of Mus musculus with 15 samples.

Results

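The genes of 6 NMDA receptor subunits were followed across the mouse cerebellum and medulloblastoma: Grin1, Grin2a, Grin2b, Grin2c, Grin2d and Grin3a. They were taken by gene name as 6 of the 27803 genes in the deposited tables, and together gave 11336 of the 80035817 UMIs in kept cells. A UMI (unique molecular identifier) stands for 1 captured mRNA molecule in Drop-seq, in which single cells meet barcoded beads in droplets. WT mice of strain C57BL/6, untreated, gave 5 cerebella at postnatal day 7 (P7). The tumors came from C57BL/6 M-Smo mice (Math1-Cre:SmoM2/EYFPloxP/loxP), in which Cre driven by the Math1 (Atoh1) promoter turns on SmoM2, a constitutively active SMO, in cerebellar granule neuron progenitors (CGNPs). Of these mice, 5 received 3 daily doses of vehicle and 5 received 3 daily doses of 75 mg per kg vismodegib, a SMO inhibitor, and the tumors were taken at P15. All M-Smo mice carry both transgenes, and the cerebella carry neither, so that age, genotype, treatment by injection and capture device all differ between WT and tumors.

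NMDA receptors are glutamate-gated cation channels that pass calcium and need glycine or D-serine as a co-agonist. Each channel contains the obligatory subunit GluN1, encoded by Grin1, together with GluN2 subunits encoded by Grin2a to Grin2d or, less commonly, GluN3 subunits. The GluN2 subunit sets the kinetics and the magnesium block, and GluN3A, encoded by Grin3a, lowers calcium flux and is known from developing neurons and from glia. In the developing cerebellum, migrating granule neurons are known for GluN2B, mature granule neurons for GluN2C and GluN2A, and young Purkinje neurons for GluN2D.

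The members lie on 6 chromosomes, all on the minus strand in GENCODE M21 (GRCm38). Grin1 spans chr2:25291181-25319187, Grin2a chr16:9567898-9995560 and Grin2b chr6:135713233-136173511. Grin2c spans chr11:115249169-115267243, Grin2d chr7:45831883-45878378 and Grin3a chr4:49661611-49845744. Exons of Grin1 touch the antisense gene Grin1os, those of Grin2b touch Gm14329, Gm22892 and Gm26653, those of Grin2c touch Gm25837, and those of Grin2d touch Gm45441 and Kdelr1. No source used here says whether counting used the strand, so reads of these overlaps could belong to either gene. The sequences upstream of Grin1, the subunit that every NMDA receptor needs, and of Grin2c, the member with the narrowest pattern below, were taken from RefSeq (GRCm38.p6, minus strand, 250 bases before the gene start, 5′ to 3′). Capitals mark CACGTG (an E-box, the same on both strands) and GGGCGG (a GC box, searched with its reverse CCGCCC).
Grin1, chr2:25319188-25319437: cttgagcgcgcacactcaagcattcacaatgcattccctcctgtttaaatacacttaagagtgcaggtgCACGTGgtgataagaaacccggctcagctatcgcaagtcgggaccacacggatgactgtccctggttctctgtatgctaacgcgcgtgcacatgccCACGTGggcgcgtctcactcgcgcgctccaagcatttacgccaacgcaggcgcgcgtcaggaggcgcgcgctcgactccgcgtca
Grin2c, chr11:115267244-115267493: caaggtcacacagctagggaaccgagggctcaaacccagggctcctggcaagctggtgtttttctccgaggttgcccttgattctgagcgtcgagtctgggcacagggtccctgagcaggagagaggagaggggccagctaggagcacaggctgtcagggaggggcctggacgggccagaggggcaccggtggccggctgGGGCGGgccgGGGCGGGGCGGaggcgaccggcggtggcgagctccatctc
The Grin1 window held CACGTG at 2 places and had a GC content of 58.8%. The Grin2c window held GGGCGG at 3 places, the last 2 of them overlapping, and had a GC content of 68.8%. Of 32851 promoters of the same length, 6.0% held CACGTG and 32.7% held GGGCGG or CCGCCC. The letters CAGATG or CATCTG, found in 14.4% of promoters, were in neither window. Grin2a, Grin2b and Grin3a had no entry in the promoter table, and the listed start of Grin2d was not in a GENCODE transcript of the gene.

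After quality limits, 37946 cells of 51841 barcodes were kept, with 805 to 8103 cells in a library, median depths of 1082.5 to 2597 UMIs per cell, and total counts of 1554478 to 16745299 UMIs per library in kept cells (2310474 to 17708677 in all barcodes). At most 13 barcodes were shared by any of the 105 pairs of libraries. Clusters were named from markers, and the CGNP lineage was rebuilt as 4 stages: Node A-like (mitotic, Mki67, Top2a), Node B-like (SHH-responsive, Gli1, Atoh1), Node C-like (early differentiating, Cntn2, Nhlh1) and Node D-like (later differentiating, Rbfox3, Snap25). These CGNP-like cells numbered 5060 in WT, 17183 in vehicle-treated and 11045 in vismodegib-treated animals. The Node D-like clusters were led by genes such as Calb2, Pcp4 and Camk4, and in tumors by none of their markers, and in WT their leading genes included Eomes, a gene of unipolar brush cells, at 196 ± 63.0 (SD, n = 5) counts per 1000000 UMIs (CPM) against 7.95 ± 5.40 in vehicle and 14.2 ± 6.15 in vismodegib. A further 329 tumor cells formed the Neuron-like cluster, led by Gabra6, Cbln3, Vsnl1 and Snhg11. Of its leading 10 genes 2 were Neuron-like markers (Snhg11, Meg3) and 2 were Node D-like markers (Gabra6, Cbln3, both known from mature granule neurons). Levels below are such CPM of a gene in an animal's cells of a class, for animals with at least 10 cells of the class. They are captures at the 3′ end, do not scale with transcript length, and are compared between genes only as captured UMIs.

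The members differed widely in abundance. Grin2b gave 5162 UMIs, Grin1 3599 and Grin3a 2235, each in all 15 libraries. Grin2c gave 194 UMIs in 14 libraries, Grin2d 108 in 15 and Grin2a 38 in 11. Tests across genes therefore rest mostly on Grin1, Grin2b and Grin3a, since the others passed the filter on low counts in few comparisons.

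Grin1 mRNA was low in the proliferating stages and high in the Node D-like stage in every group. In WT, the Node A-like levels were 2.89, 0, 6.69, 6.69 and 10.5 CPM in the 5 animals, and the Node D-like levels were 105, 69.1, 104, 92.2 and 66.9 CPM. In vehicle-treated tumors, the Node A-like levels were 5.62, 6.57, 13.1, 6.84 and 4.50 CPM and the Node D-like levels were 228, 145, 329.5, 188 and 169 CPM. Every Node D-like level was above every Node A-like level in both groups. By edgeR's quasi-likelihood test with the animal as a block, Grin1 was higher in Node D-like than in Node A-like cells by 4.13 ± 0.34 (SE) on the log2 scale in WT (adjusted p = 1.186e-12) and by 4.83 ± 0.20 in vehicle (adjusted p = 5.669e-32). Grin1 passed the filter on low counts through Node D-like cells, where it was high, so the tests of these stages lend no separate support. Between these stages, mean Grin1 levels were 7.11, 8.12 and 9.21 CPM in Node B-like and 13.4, 35.5 and 46.5 CPM in Node C-like cells of WT, vehicle and vismodegib.

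Grin2b, the GluN2 subunit of immature neurons, was also higher in the later stages. Its WT levels were 12.1, 14.5, 15.6, 16.2 and 25.1 CPM in Node A-like cells, 128, 151, 122, 133 and 108 CPM in Node C-like cells, and 349.7, 299, 334, 230.4 and 322 CPM at the Node D-like stage. The ranges of the Node A-like, Node C-like and Node D-like stages did not overlap. Node B-like levels, given further below, overlapped with the Node A-like levels in both WT and vehicle. In vehicle-treated tumors the Node C-like levels were 149, 107, 157, 97.1 and 64.1 CPM and the Node D-like levels were 199.6, 158, 351, 303 and 160.5 CPM, so that the stages met at 157 and 158 CPM without overlap. Node D-like cells were above Node A-like cells by 4.22 ± 0.18 (log2, SE) in WT (edgeR, adjusted p = 3.741e-20) and by 4.30 ± 0.19 in vehicle (adjusted p = 7.921e-30). Grin2b also passed the filter through the Node D-like cells, so these tests lend the differences no separate support. The WT Node A-like cells included a cluster led by Ttr, listed here as a choroid plexus or ependymal marker. Over 13 alternatives, among them leaving that cluster out, both WT differences stayed called. They were 3.67 to 4.66 for Grin1 and 3.91 to 4.44 for Grin2b.

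**Figure D1:**
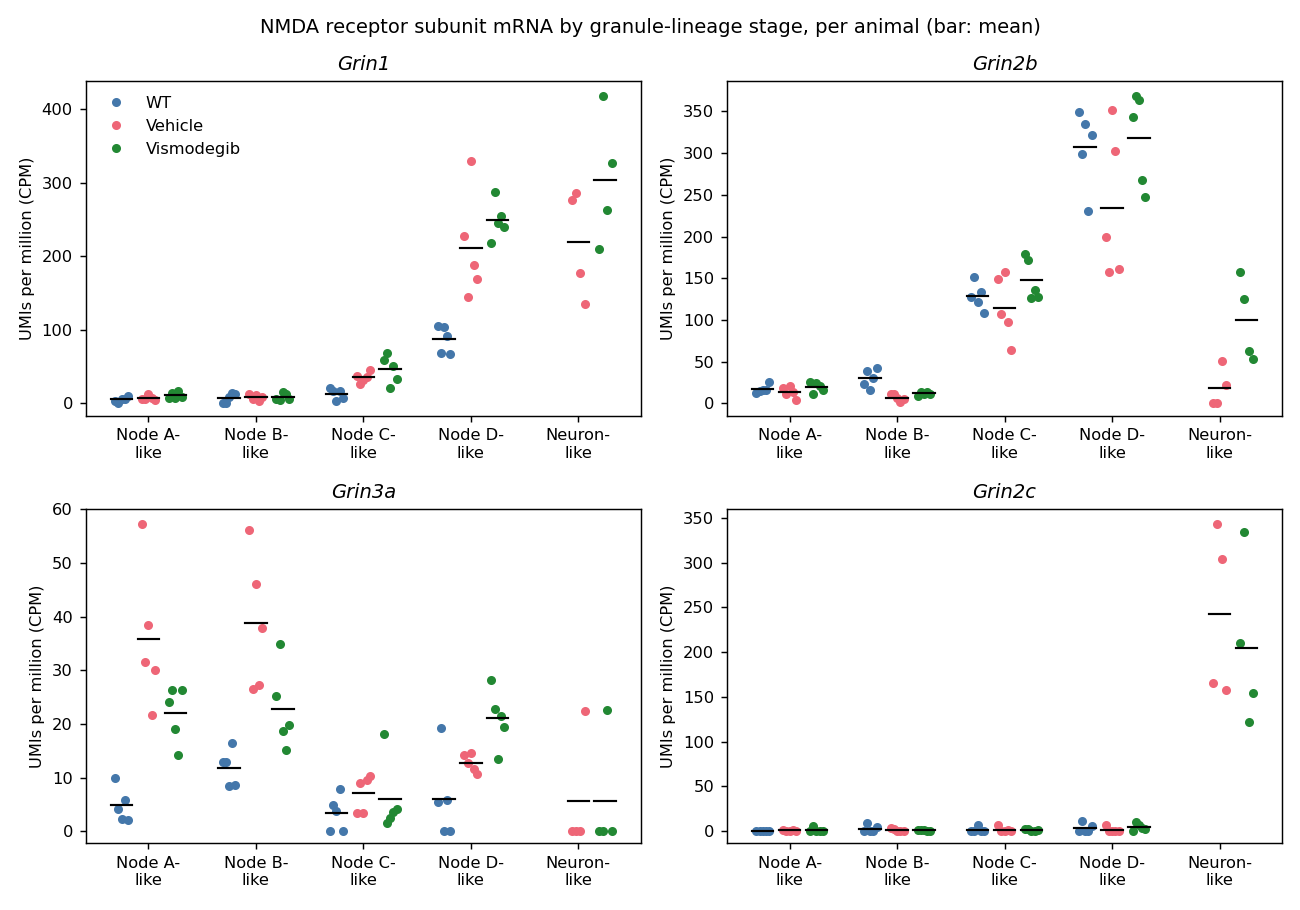
Level of Grin1, Grin2b, Grin3a and Grin2c in CPM (y axis) in each stage and in Neuron-like cells (x axis). Each point is an animal with at least 10 cells of the class, bars are means, and colors are groups. Grin1 and Grin2b are highest in Node D-like or Neuron-like cells, Grin3a is highest in Node A-like and Node B-like cells of vehicle-treated tumors, and Grin2c points above 100 CPM lie in Neuron-like cells.

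Grin3a ran the other way in vehicle-treated tumors. In vehicle-treated tumors it fell from Node A-like levels of 57.3, 31.6, 38.5, 21.7 and 29.97 CPM to 12.8 ± 1.70 CPM (SD, n = 5) in Node D-like cells, a change of -1.42 ± 0.32 (log2, SE; edgeR, adjusted p = 1.263e-04). All 5 tumors were higher in the Node A-like stage. Grin3a passed the filter on low counts through that stage, so the test lends the difference no separate support. The Node D-like level rests on 17 UMIs and could not be told from that of vehicle Microglia-like cells (9.997 ± 13.9 CPM, SD, n = 4, 6 UMIs), which should lack the gene, so the change is taken against a level near background. In vismodegib-treated tumors the stages overlapped, with mean Grin3a levels of 22.0 ± 5.30 (SD, n = 5) and 21.1 ± 5.31 CPM for the Node A-like and the Node D-like stage, a difference that was not tested. In WT, Grin3a averaged 4.80 CPM among Node A-like cells, with 6.07 ± 7.85 CPM at the Node D-like stage, and did not pass the filter there. Of all genes tested, 58.3% were called between these stages in WT and 63.5% in vehicle, and the stages were formed by genes of these same cells, with the members and the lists below held out. Members called were 2 of 2 tested in WT and 3 of 3 in vehicle. Each had passed the filter through the stage where it was high, so these counts lend no separate support. The log2 difference between stages was compared between vehicle and WT by an interaction term, which was 0.66 ± 0.46 for Grin1 (edgeR, adjusted p = 0.4546) and 0.08 ± 0.28 for Grin2b (adjusted p = 0.9179), where 9.98% of genes were called.

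Genes of the NMDA receptor's postsynaptic surroundings changed along the same stages. Of 31 genes listed for scaffolding and signalling, 16 were tested in WT, of which 14 were higher and none lower in Node D-like cells, with a median difference of 1.51 on the log2 scale against -0.02 over all genes. Camk2b and Camk2d, subunits of the kinase CaMKII that binds GluN2B, were higher by 3.63 ± 0.22 and 3.37 ± 0.16 (log2, SE), and Lin7a, part of a complex that carries GluN2B vesicles, by 3.04 ± 0.19. Shank2 and Dlg4, scaffold proteins of the postsynaptic density, were higher by 2.06 ± 0.30 and 1.89 ± 0.32, and Neto2, an auxiliary subunit of kainate receptors, by 1.94 ± 0.19. In vehicle, 15 of 20 tested were higher and 1 was lower, with a median of 0.85 against -0.013 over all genes. These counts, and those of the next list, stand against the 58.3% and 63.5% of all genes called. The one that was lower was Homer2, a scaffold protein of metabotropic glutamate receptors, with -1.71 ± 0.16, and Camk2d, Lin7a, Camk2b, Shank3 and Dlg2 were higher by 3.87 ± 0.15, 3.39 ± 0.18, 3.32 ± 0.16, 3.14 ± 0.30 and 2.52 ± 0.29.

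Genes that handle glutamate and the co-agonist D-serine moved in both directions. Of the 12 listed, 7 were tested in WT with 3 higher and 3 lower, and 8 in vehicle with 3 higher and 5 lower (medians 0.45 and -0.79 against -0.02 and -0.013 over all genes). Srr, the enzyme that makes D-serine, was higher in Node D-like than in Node A-like cells in WT (adjusted p = 9.209e-04, edgeR) and by 1.67 ± 0.27 (log2, SE) in vehicle. Phgdh, the first enzyme of L-serine synthesis, was lower, with -2.97 ± 0.36 and -3.63 ± 0.37. Slc17a6 (VGLUT2, which loads glutamate into vesicles) was higher by 1.36 ± 0.14 in WT and 1.51 ± 0.13 in vehicle, and Slc1a2, a glutamate transporter, was lower with -0.98 ± 0.23 and -1.06 ± 0.14. Grina, a glutamate receptor-associated gene that is no receptor subunit, was higher by 2.02 ± 0.15 and 2.79 ± 0.16, while Grin3b did not pass the filter, with 7, 53 and 31 UMIs in all cells of WT, vehicle and vismodegib.

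Clusters within a stage were not alike in these genes. The 3 Node C-like clusters of the tumors differed in Grin1, with means in vehicle of 21.6 ± 5.72, 40.9 ± 17.3 and 83.9 ± 23.2 CPM (SD, n = 5) and in vismodegib of 14.9 ± 10.2, 42.4 ± 16.8 and 131 ± 46.2 CPM. The last of them was led by Pitpnm3, Ephb1 and Dpysl3 and was shallow, with a median of 886 UMIs per cell. The Node D-like clusters were closer to each other, with Grin1 at 196 to 256 CPM in vehicle and 212 to 250 CPM in vismodegib. In WT, the Node C-like clusters held Grin2b at 157 ± 30.7 and 85.7 ± 22.0 CPM. These cluster values are descriptions and were not tested.

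Most cells carried no UMI of any subunit. With each cell thinned to 500 UMIs, Grin1 was seen in 4.01% of WT Node D-like cells (95% exact binomial interval 2.85 to 5.46), in 11.01% of vehicle (9.02 to 13.27) and in 11.64% of vismodegib cells (10.69 to 12.65), and without thinning in 10.23%, 25.31% and 34.56%. Grin2b was seen in 14.35%, 10.44% and 12.96% of the same cells after thinning. Microglia-like cells, which should lack these subunits, showed Grin1 in 0 of 96, 1 of 198 and 1 of 327 thinned cells of WT, vehicle and vismodegib, at unthinned median depths of 1682.5, 2110.5 and 2329 UMIs against 1156.5, 1377 and 1752 in Node D-like cells. Grin1 in Node A-like cells, at 0.22%, 0.47% and 0.75% after thinning, was within the intervals of the Microglia-like shares (up to 3.77%, 2.78% and 1.69%) and could not be told from background at this depth. The Grin1 folds over Node A-like cells above are taken against that level. The intervals, wide for so few Microglia-like cells, cover counting error only. For comparison, the Microglia-like level of Cre, which the Math1 promoter drives, was 17.9% of the CGNP-like level in vehicle and 9.3% in vismodegib. By the paper, the range of Cre expression may differ from that of native Atoh1. Grin1 was at 30.6% and 11.8%, Grin2b at 6.5% and 5.8%, and Grin3a at 38.2% and 17.1%. The vehicle values rest on few UMIs, with 1 for Grin2b. Grin2c, Grin2a and Grin2d were at 241.0%, 105.4% and 79.1% in vismodegib, from 4, 1 and 1 Microglia-like UMIs, and at 0 in vehicle.

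Among the GluN2 genes, the Purkinje-like cells had Grin2d rather than Grin2b. Purkinje-like cells of WT (106 cells, 88 in the 3 animals with at least 10) held Grin1 at 92.8, 58.8 and 60.4 CPM and overlapped with WT Node D-like cells, while Grin2b was represented by 1 UMI. Against Node D-like cells of the same animals, Grin2b differed by -6.59 ± 0.55 (log2, SE; edgeR, adjusted p = 2.681e-12). This fitted value rests on that 1 UMI and ran from -8.29 to -6.33 when 1 animal was left out. Grin2b passed the filter on low counts through the Node D-like cells, where it was high, so its test lends the difference no separate support. Grin1 differed by -0.25 ± 0.35 (adjusted p = 0.6001). Grin2d was at 44.4, 19.6 and 60.4 CPM from 11, 1 and 7 UMIs. Of their GluN2 UMIs, 19 of 20 were Grin2d, or 95.0% (exact binomial interval 75.13 to 99.87). Grin3a was present as well, at 80.7, 118 and 51.8 CPM. Members called were 1 of 2 tested, where 41.4% of genes were called. The count was 3 without WT replicate 3 and 2 without WT replicate 4.

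GABAergic interneuron-like cells of WT (656 cells) had Grin2b, as the granule lineage did, at lower levels. Their Grin1 levels were 40.5, 92.3, 48.1, 33.9 and 53.8 CPM and their Grin2b levels 77.9, 76.9, 48.1, 58.1 and 80.7 CPM. Every animal's Grin2b was below every Node D-like level of WT, and the difference was -2.07 ± 0.18 (log2, SE; edgeR, adjusted p = 8.286e-13). Grin1 overlapped between the classes and differed by -0.78 ± 0.29 (adjusted p = 0.03869), a call that was lost in 5 of its 12 alternatives, among them without WT replicate 1 (-0.55) or 4 (-0.64). Members called were 2 of 2 tested, where 28.3% of genes were called. Grin2b made up 62 of 66 GluN2 UMIs there, or 93.94% (85.20 to 98.32). GABAergic progenitor-like cells, by comparison, held Grin1 at 1.56 CPM and Grin3a at 29.7 ± 24.2 CPM (SD, n = 5).

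Postsynaptic genes also differed between these neurons. In Purkinje-like against Node D-like cells, where 41.4% of all genes were called, 7 of 17 scaffold and signalling genes were higher and 5 lower, with Homer3 and Camk2a higher by 4.61 ± 0.43 and 4.44 ± 0.71 (log2, SE) and Lin7a and Homer2 lower with -3.34 ± 0.46 and -2.65 ± 0.39. The list's median was 0.44 against -0.038 over all genes. In interneuron-like cells, where 28.3% of all genes were called, 6 of 13 were lower and none higher (median -0.46 against 0.034 over all genes), with Camk2b at -2.27 ± 0.25, Camk2d at -1.88 ± 0.19 and Neto2 at -1.43 ± 0.22. Slc17a6, which GABAergic neurons are not known to use, was lower with -5.53 ± 0.50 in Purkinje-like and -3.63 ± 0.24 in interneuron-like cells. It was the handling gene called in each comparison, of 1 and 3 tested. Grina was tested in both and not called.

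In the tumors' Neuron-like cells, Grin2c was the leading GluN2 gene. With at least 10 such cells in each, 4 vehicle-treated tumors held Grin2c at 166, 343, 304 and 157 CPM, and 4 vismodegib-treated ones at 210.1, 334, 122 and 155 CPM. Node D-like cells gave 1 Grin2c UMI in vehicle and 29 in vismodegib, at most 10.6 CPM in a vismodegib-treated and 7.13 CPM in a vehicle-treated tumor, so that no tumor's Neuron-like level overlapped with any Node D-like level. Grin2b was at 0, 0, 50.7 and 22.5 CPM in vehicle and at 158, 125, 63.3 and 53.5 CPM in vismodegib. Over the 8 tumors, Grin2c was higher than in Node D-like cells by 5.79 ± 0.36 (log2, SE; edgeR, adjusted p = 1.676e-54), Grin2b was lower with -2.10 ± 0.25 (adjusted p = 8.259e-16), and Grin1 differed by 0.26 ± 0.17 (adjusted p = 0.2633). This comparison was added after the levels had been seen. Grin2c passed the filter on low counts through the Neuron-like cells, where it was high, so its test lends the difference no separate support. Grin2b passed it through the Node D-like cells, where it was high, so the same holds for its test. Members called were 2 of 3 tested, where 32.1% of genes were called.

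The Neuron-like cells held Grin1 at 277, 286, 177 and 135 CPM in vehicle and at 210.1, 417, 262 and 327 CPM in vismodegib. Grin2c was 28 of 33 GluN2 UMIs in vehicle, or 84.85% (exact binomial interval 68.10 to 94.89), and 65 of 100 in vismodegib, or 65.0% (54.82 to 74.27), with Grin2b at 29.0%. Of the 329 cells, 81 had a Grin2c UMI, 28 a Grin2b UMI and 4 both, and 33 had both Grin1 and Grin2c. Thinned to 500 UMIs, 13.19% of vehicle and 10.50% of vismodegib cells showed Grin2c, against 0 of 198 and 1 of 327 Microglia-like cells. Grin2a, the other GluN2 subunit of mature granule neurons, gave 2 and 6 UMIs there. Gabra6, a GABA receptor subunit of mature granule neurons, was at 960 and 820 CPM in these cells of vehicle and vismodegib against 14.8 and 15.3 CPM at the Node D-like stage. Cre was at 308 ± 134 and 173 ± 93.2 CPM (SD, n = 4) against 474 and 90 CPM in Microglia-like cells, and at 772 and 504 CPM at the Node D-like stage. Of the scaffold and signalling genes, 4 of 14 were higher and 3 lower than in Node D-like cells, beside the 32.1% of all genes called (median 0.24 against -0.074), led by Dlgap1, a scaffold protein that binds PSD-95, with 2.43 ± 0.17. Of 4 handling genes tested, 1 was higher and Slc17a6 was lower with -2.08 ± 0.25 (median 0.06). Grina, which is not on that list, was higher by 0.95 ± 0.16.

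**Figure D2:**
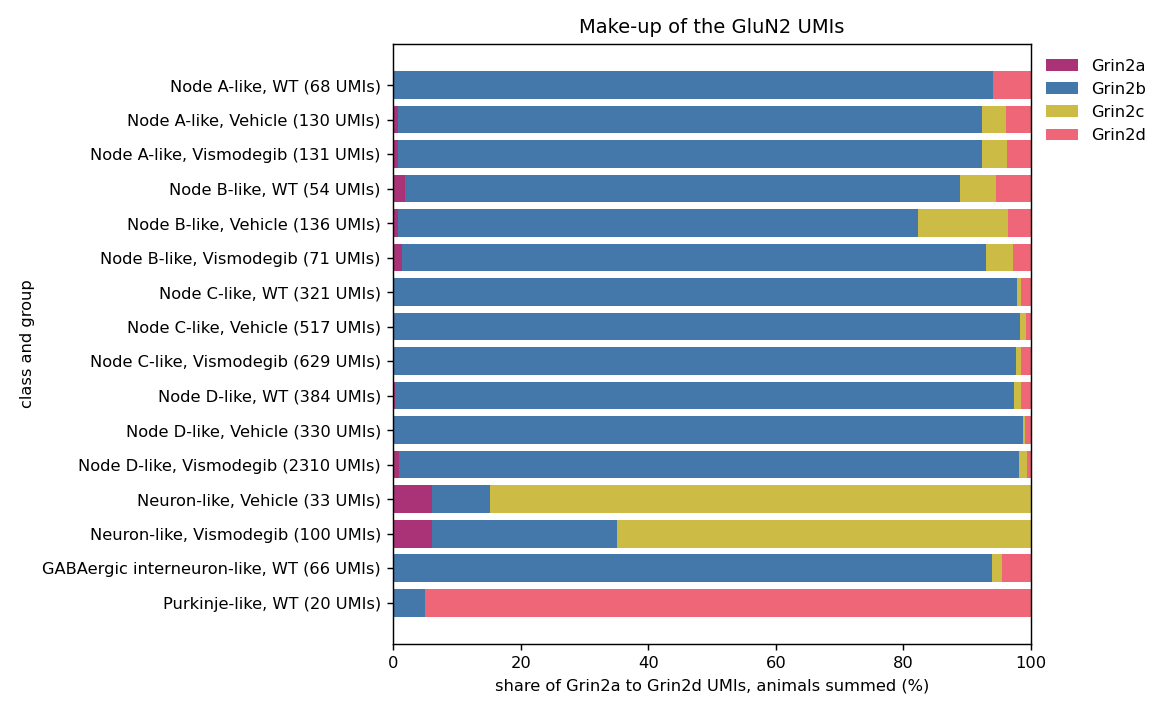
Share of Grin2a, Grin2b, Grin2c and Grin2d in their summed UMIs (x axis, percent) for each class and group (y axis, with the UMIs behind each bar), animals summed. Grin2b fills most of every bar of the granule stages and of interneuron-like cells, Grin2c fills 84.85% and 65.0% of the Neuron-like bars, and Grin2d fills 95.0% of the Purkinje-like bar.

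Within CGNP-like cells, which leave out the Neuron-like cells, the shares of Grin2b and Grin2c among GluN2 UMIs were tested between groups. No difference passed the test. Grin2b was 96.17 ± 2.27% (SD, n = 5) of GluN2 UMIs in CGNP-like cells of WT, 95.28 ± 3.65% in vehicle and 96.5 ± 1.58% in vismodegib. Grin2c was 1.48 ± 1.41%, 2.98 ± 3.14% and 1.6 ± 1.18%. With animals summed, CGNP-like Grin2c was at 0.845 CPM in vehicle and 1.739 CPM in vismodegib, against 0 and 4.191 CPM in Microglia-like cells. By a 2-sided exact permutation test over animals, vehicle and vismodegib gave p = 0.667 for Grin2b and 0.484 for Grin2c, and WT and vehicle gave 0.722 and 0.413. All 4 adjusted p-values were 0.722, and 0.00794 is the smallest p that 5 against 5 animals allow.

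Vismodegib was compared with vehicle to see how SMO inhibition changed the tumors' receptor genes. In CGNP-like cells, Grin1 was at 22.0, 14.2, 36.5, 23.0 and 15.0 CPM in vehicle and at 51.3, 73.9, 60.8, 114 and 113 CPM in vismodegib. Grin2b was at 38.6, 32.4, 57.7, 43.5 and 15.0 CPM in vehicle and at 104, 112, 109, 137 and 131 CPM in vismodegib. For both genes every vismodegib-treated tumor was above every vehicle-treated tumor. Grin1 rose by 1.94 ± 0.30 (log2, SE; edgeR, adjusted p = 9.361e-04) and Grin2b by 1.69 ± 0.27 (adjusted p = 0.001247). Grin3a was at 47.4, 24.8, 34.8, 21.1 and 31.0 CPM in vehicle and at 23.7, 23.7, 14.6, 15.1 and 19.4 CPM in vismodegib, with overlap. It was lower with -0.71 ± 0.22 (adjusted p = 0.04717), a call that was lost without vehicle replicate 1, 3 or 5 or vismodegib replicate 1, 3, 4 or 5 (-0.56 to -0.78). Members called were 3 of 3 tested, where 13% of genes (1619 of 12428) were called.

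Tumor cells over all classes, which need no cluster names, gave Grin1 at 23.6, 14.8, 37.4, 23.8 and 15.0 CPM in vehicle and at 46.4, 73.0, 56.7, 107 and 101 CPM in vismodegib. Grin1 was higher in vismodegib by 1.75 ± 0.30 (log2, SE; edgeR, adjusted p = 0.002523) and Grin2b by 1.54 ± 0.28 (adjusted p = 0.003495), where 13.9% of genes were called. Grin2c was at 1.03 ± 0.49 (adjusted p = 0.1844) and Grin3a at -0.51 ± 0.19 (adjusted p = 0.08628), so that 2 of the 4 members tested were called.

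Within a stage, no member tested was called between treatments by edgeR, with 3 tested in Node A-like and Node B-like cells (Grin1, Grin2b and Grin3a) and 2 in Node C-like and Node D-like cells (Grin1 and Grin2b). In Node D-like cells, Grin1 was at 219, 287, 245, 255 and 239 CPM in vismodegib, all within the vehicle range of 145 to 329.5 CPM, and differed by 0.26 ± 0.20 (log2, SE; adjusted p = 0.9023), and Grin2b differed by 0.42 ± 0.22 (adjusted p = 0.8025). In Node A-like cells Grin1 differed by 0.70 ± 0.36, Grin2b by 0.61 ± 0.40 and Grin3a by -0.69 ± 0.26 (adjusted p = 0.484, 0.6417 and 0.2461). In Node B-like cells the differences were 0.17 ± 0.42, 0.81 ± 0.37 and -0.76 ± 0.26 (adjusted p = 0.898, 0.3005 and 0.1419), and in Node C-like cells Grin1 and Grin2b differed by 0.41 ± 0.26 and 0.41 ± 0.21 (adjusted p = 0.7614 and 0.6655). Unadjusted p-values under 0.05 were found for Grin3a in Node A-like (0.01617) and Node B-like cells (0.01009) and for Grin2b in Node B-like cells (0.04565). Few genes of any kind were called within stages, namely 2.28, 3.12, 0.307 and 0.0618% from Node A-like to Node D-like. The differences of Grin1 and Grin2b were above 0 in all 4 stages, but Node B-like Grin1 ran from -0.05 to 0.37 when 1 animal was left out. Grin3a, which was not tested in Node D-like cells, was there at 10.7 to 14.6 CPM in vehicle (17 UMIs, mean 12.8 CPM) and at 13.5 to 28.1 CPM in vismodegib (168 UMIs, mean 21.1 CPM), the reverse of its order in Node A-like and Node B-like cells.

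The stages took different shares of the vehicle- and vismodegib-treated tumors. UMI sums over a lineage alone cannot tell fewer cells of a stage from less RNA per cell, so shares of cells are given too. Node D-like cells gave 3.4, 3.3, 6.8, 7.0 and 2.4% of CGNP-like UMIs in vehicle and 15.2, 19.0, 20.3, 38.6 and 43.9% in vismodegib. As a share of CGNP-like cells, Node D-like cells were 3.5 to 10.8% in vehicle and 20.2 to 53.5% in vismodegib. Neither kind of share overlapped. With the vehicle levels of each stage held and the UMI shares exchanged, the ratio of mean Grin1 was 1.69 on the log2 scale. It was 1.95 as observed and 0.31 with only the levels exchanged. For Grin2b the same values were 1.35, 1.79 and 0.45, and for Grin3a -0.36, -0.75 and -0.68. These are arithmetic on group means, with no test. Vismodegib replicates 4 and 5, with the largest Node D-like shares, are also the vismodegib-treated tumors with the later serial numbers in the labels (from 12), as are vehicle replicates 4 and 5. With this division (serial numbers up to 10 against from 12) as a covariate, Grin1 was 1.89 ± 0.28 (edgeR, adjusted p = 3.402e-04), Grin2b 1.71 ± 0.27 (adjusted p = 5.281e-04) and Grin3a -0.70 ± 0.20 (adjusted p = 0.02861).

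**Figure D3:**
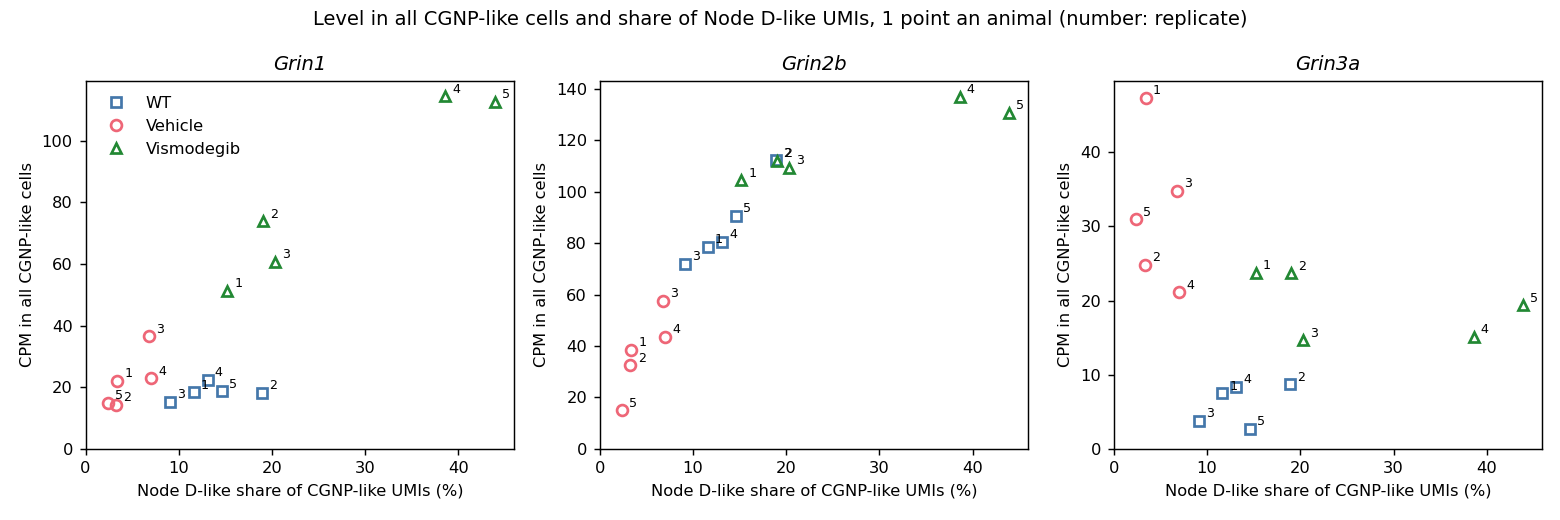
Level of Grin1, Grin2b and Grin3a in all CGNP-like cells (y axis, CPM) against the share of CGNP-like UMIs from Node D-like cells (x axis, percent). Each point is an animal, its number the replicate, and its shape and color the group. Vismodegib replicates 4 and 5 lie farthest right, and the WT cerebella lie among the tumors for Grin2b but below the vismodegib-treated tumors for Grin1.

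**Figure D4:**
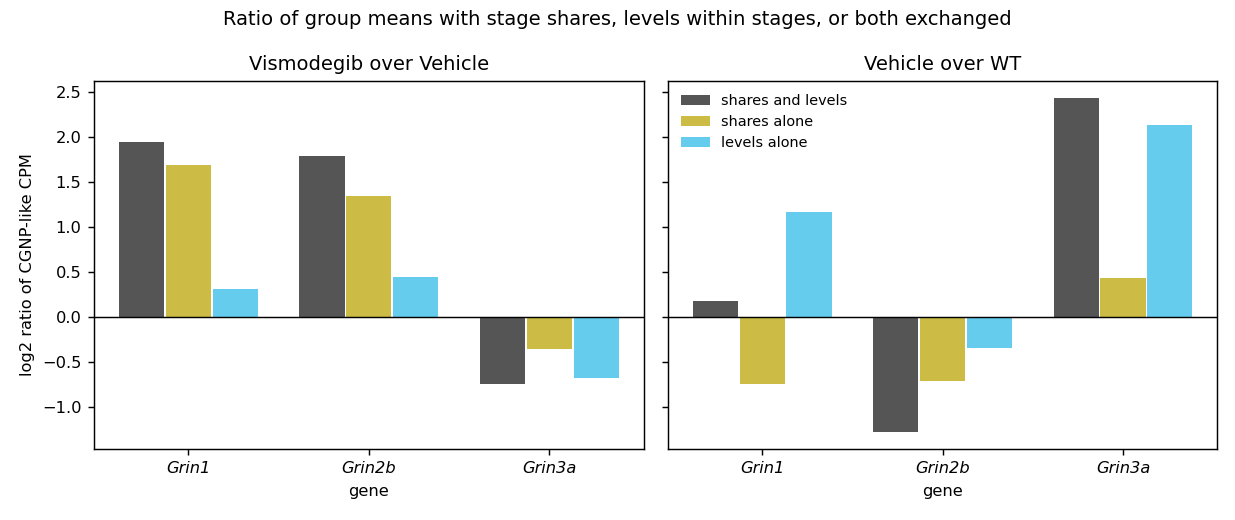
Log2 ratio of mean CGNP-like CPM (y axis) for Grin1, Grin2b and Grin3a (x axis), for vismodegib over vehicle (left) and vehicle over WT (right). Bars give the ratio with both groups' own shares and levels, with only the stage shares exchanged and with only the levels exchanged. For vismodegib over vehicle the Grin1 bars are 1.95, 1.69 and 0.31, and for vehicle over WT they are 0.18, -0.75 and 1.17.

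Scaffold and signalling genes called in CGNP-like cells were mostly higher in vismodegib, as Grin1 was, and handling genes were called in both directions. Of 26 scaffold and signalling genes tested, 14 were higher and 1 lower in vismodegib, with a median of 0.67 on the log2 scale against 0.003 over all genes, of which 13% were called. Nos1, the neuronal nitric oxide synthase that PSD-95 ties to the receptor, was higher by 2.44 ± 0.41 (SE), Camk2d by 1.72 ± 0.26, Lin7a by 1.64 ± 0.30 and Dlg2, which encodes PSD-93, by 1.42 ± 0.23. Of 10 handling genes, Srr and Slc17a6 were both higher by 0.85 (± 0.16 and ± 0.19) and Slc1a3, a glial and progenitor glutamate transporter, was lower with -0.98 ± 0.22 (median -0.14). Grina was higher by 0.74 ± 0.15. Over all tumor cells, where 13.9% of all genes were called, 12 of 26 scaffold genes were higher and 1 lower, 3 of 11 handling genes were higher, and Grina was higher. Within stages, where 2.28% (Node A-like) and 3.12% (Node B-like) of all genes were called, the list genes called were Neto2 (0.88) among 22 scaffold genes of Node B-like cells, Slc17a6 (1.01) and Slc1a3 (-1.05) among 8 handling genes of Node A-like cells, and Slc1a3 (-1.31) among 8 in Node B-like cells, with none in Node C-like or Node D-like cells.

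Vehicle-treated tumors were set beside WT cerebella with the differences of age, genotype and device in mind, which cannot be told apart here. In CGNP-like cells, Grin1 was at 18.4, 18.1, 15.2, 22.3 and 18.7 CPM in WT, overlapped with vehicle, and differed by 0.14 ± 0.26 (log2, SE; edgeR, adjusted p = 0.6971). Grin2b was at 78.6, 112, 72.0, 80.6 and 90.7 CPM in WT, above every vehicle-treated tumor, and differed by -1.31 ± 0.27 (adjusted p = 0.001006). Grin3a was at 7.48, 8.69, 3.79, 8.33 and 2.67 CPM in WT, below every vehicle-treated tumor, and was higher in vehicle by 2.17 ± 0.29 (adjusted p = 3.828e-05). The WT Grin3a levels, here and in the single stages, could not be told from those of WT Microglia-like cells (9.31 ± 18.6 CPM, SD, n = 4, 2 UMIs), so these folds are taken against a level near background. Members called were 2 of 3 tested, where 44.6% of genes were called. With only the stage shares exchanged between WT and vehicle the log2 ratio of mean Grin1 was -0.75, and with only the levels within stages exchanged it was 1.17, against 0.18 observed. For Grin2b these values were -0.71, -0.35 and -1.28, and for Grin3a 0.43, 2.14 and 2.44, again with no test. The stages of WT and of tumors were named separately and were not matched for maturity.

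By stage, the same comparison read differently for Grin1. Node D-like Grin1 was above every WT animal in every vehicle-treated tumor and higher by 1.17 ± 0.24 (log2, SE; edgeR, adjusted p = 6.018e-04), and Node C-like Grin1, at 20.9, 17.3, 3.7, 17.1 and 8.04 CPM in WT and 37.6, 27.0, 31.5, 35.5 and 45.9 CPM in vehicle, by 1.07 ± 0.32 (adjusted p = 0.01336). The Node D-like cells of these groups also differed in Eomes, with the levels given above, and its part in this result was not tested. WT and tumor cells were clustered and staged separately, so the stages were not matched for maturity between them, and this too was not tested. The Node C-like call was lost at a finer clustering (0.78, adjusted p = 0.1031). Grin2b was called in Node B-like cells, with -2.27 ± 0.41 (adjusted p = 3.215e-04), from 23.3, 38.5, 16.7, 30.7 and 42.9 CPM in WT to 10.9, 10.95, 5.91, 2.02 and 4.84 CPM in vehicle. It was not called in Node A-like (-0.49 ± 0.42), Node C-like (-0.37 ± 0.21) or Node D-like cells (-0.45 ± 0.21), with adjusted p of 0.3781, 0.2036 and 0.1155. In Node C-like cells it was called at the finer clustering (-0.69) and with hemoglobin genes kept in the clustering (-0.60), and in Node D-like cells without vehicle replicate 3 (-0.64). Grin3a was higher in vehicle in Node A-like cells by 2.42 ± 0.36 (adjusted p = 4.461e-05) and in Node B-like cells by 1.45 ± 0.34 (adjusted p = 0.002677), with no overlap in either stage. The Node B-like values of Grin3a were 12.9, 12.8, 8.33, 16.4 and 8.59 CPM in WT against 56.1, 26.6, 46.1, 27.3 and 37.9 CPM in vehicle, and the vismodegib-treated tumors lay between these groups' means at 25.3, 34.9, 18.7, 15.2 and 19.9 CPM. The stages were compared after their levels had been seen. Grin1 in Node C-like cells and Grin3a in Node A-like and Node B-like cells passed the filter through the vehicle-treated tumors, where they were high. Grin2b in Node B-like cells passed it through the WT cerebella, where it was high. These tests lend the differences no separate support. From Node A-like to Node D-like, 37.8, 30.5, 32.1 and 27.6% of genes were called, and a single member passed in each stage but Node B-like, where 2 did.

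Since Grin1 and Grin2b did not differ alike, their balance was counted within each animal, a ratio chosen after the values were seen and given with no test. In Node D-like cells there were 20.8 to 40.0 Grin1 UMIs for every 100 Grin2b UMIs in WT (mean 29.0 ± 7.6, SD, n = 5), 61.9 to 114.3 in vehicle (93.4 ± 19.8) and 63.6 to 97.0 in vismodegib (80.2 ± 15.4). No tumor of either treatment overlapped with a WT animal. In Node C-like cells the range was 3.0 to 16.3 in WT, 20 to 71.7 in vehicle and 17.0 to 40.3 in vismodegib, again without overlap. At least 1 tumor group overlapped with WT in the earlier stages. In Node B-like cells the range was 0 to 50 in WT, 51.4 to 190.0 in vehicle and 35.3 to 142.9 in vismodegib, and in Node A-like cells 0 to 42.9, 31.2 to 122.7 and 28.6 to 130, both from few UMIs in WT. The ratio needs no scaling between libraries. The difference in Eomes applies to these Node D-like cells too, and the stages of WT and tumors were named separately.

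Genes of the lists were called in both directions between vehicle and WT. In CGNP-like cells 4 of 25 scaffold and signalling genes were higher and 9 lower in vehicle (median -0.08 against 0.047 over all genes), a called share near the 44.6% of all genes, with Dlg2 and Shank2 lower with -1.49 ± 0.22 and -1.47 ± 0.41 (log2, SE) and Shank3 higher by 1.16 ± 0.35. Of 10 handling genes 4 were higher and 3 lower (median 0.30), led by Slc1a2 at 1.74 ± 0.18, and Grina was lower with -0.91 ± 0.17. Within stages, the scaffold genes higher and lower were 2 and 3 of 21, 3 and 1 of 20, 2 and 3 of 21, and 1 and 5 of 17, in the order of the stages, where 37.8, 30.5, 32.1 and 27.6% of all genes were called. The handling genes were 5 and 2 of 8, 4 and 3 of 8, 2 and 0 of 7, and 1 and 1 of 6, and Grina was lower in Node A-like and Node B-like cells. In the interaction of stage and group 2 of 14 scaffold genes and 1 of 7 handling genes were called below 0, beside 9.98% of all genes, and Grina was above it (0.78).

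Grin3a was also found in glia. In Astrocyte-like cells it was at 58.4, 75.1, 39.1, 53.5 and 23.6 CPM in WT, at 107, 132, 194 and 153 CPM in 4 vehicle-treated tumors (the fifth had too few cells), and at 122, 402, 179.9, 141 and 104 CPM in vismodegib. In Oligodendrocyte-like cells it was at 48.1, 60.4, 47.8, 33.0 and 29.8 CPM in WT, at 129, 193, 228, 148 and 109 CPM in vehicle, and at 94.3, 147, 82.4 and 64.7 CPM in 4 vismodegib-treated tumors. In both classes every tumor was above every WT cerebellum. Vehicle exceeded WT by 1.56 ± 0.32 (log2, SE; edgeR, adjusted p = 6.628e-04) in Astrocyte-like and by 1.70 ± 0.34 (adjusted p = 6.941e-04) in Oligodendrocyte-like cells, where 21.8% and 26.4% of genes were called. The comparison was added after the levels were seen, and Grin3a was the member that passed the filter in both. It passed through the vehicle-treated tumors, where it was high, so these tests lend the difference no separate support. Age, genotype and device differ between the groups here too. Grin3a was seen in 9.18%, 25.23% and 25.51% of Astrocyte-like cells of WT, vehicle and vismodegib, or 2.81%, 4.95% and 5.42% after thinning, against 1.04%, 0% and 0.31% of Microglia-like cells (1 of 96, 0 of 198 and 1 of 327, exact intervals up to 5.67%, 1.85% and 1.69%). The WT share lay within the interval of WT Microglia-like cells and could not be told from background at this depth, and the fold of vehicle over WT in Astrocyte-like cells is taken against that level. Of the other members in glia, Grin2b averaged 41.5, 20.9 and 35.4 CPM in Astrocyte-like cells of WT, vehicle and vismodegib, and Grin1 averaged 15.2, 50.5 and 34.3 CPM in Oligodendrocyte-like cells, with the vehicle-treated tumors spread from 22.7 to 96.0 CPM. Around Grin3a, 1 of 6 scaffold genes was higher in Astrocyte-like and 1 of 3 in Oligodendrocyte-like cells. Of the handling genes, 4 of 6 were higher and 1 lower in Astrocyte-like and 1 of 4 was higher in Oligodendrocyte-like cells.

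Grin2a and Grin2d stayed near the limit of the data. Grin2a gave 2, 2 and 24 UMIs in CGNP-like cells of WT, vehicle and vismodegib, where 3 counts, taken as the floor, are 0.319, 0.085 and 0.124 CPM. Of the 24, 21 were in Node D-like cells, at 3.23 ± 2.21 CPM (SD, n = 5). Grin2d was at 2.15 ± 1.85, 0.627 ± 0.557 and 1.38 ± 0.749 CPM in CGNP-like cells, and was not seen in Neuron-like cells. Outside Purkinje-like cells its highest means were 18.0 CPM in Endothelial-like and 15.2 CPM in Vascular fibroblast-like cells of WT, from 2 and 6 UMIs.

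Over the 30 profiles of a class in a group with at least 3 animals, Grin1 was highest in Neuron-like cells of vismodegib (304 CPM), then in Node D-like cells of vismodegib (249 CPM), Neuron-like cells of vehicle (219 CPM) and Node D-like cells of vehicle (212 CPM). These 4 overlapped with their neighbours in the order, and the next, WT Node D-like cells at 87.5 ± 18.6 CPM, did not overlap with the last of them. Grin2b was highest in Node D-like cells of vismodegib (318 CPM), WT (307 CPM) and vehicle (234 CPM), followed by the Node C-like cells, each overlapping with the next. Grin3a was highest in the 2 glial classes of tumors (190 CPM in Astrocyte-like cells of vismodegib), with neighbours overlapping from there to vehicle Node A-like cells at the ninth place. The 190 CPM mean includes vismodegib replicate 2 at 402.3 CPM, with the nearest animal at 179.9 CPM. For Grin2c, the Neuron-like cells of vehicle and vismodegib (243 and 205 CPM) were clear of the third profile at 5.90 CPM.

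**Figure D5:**
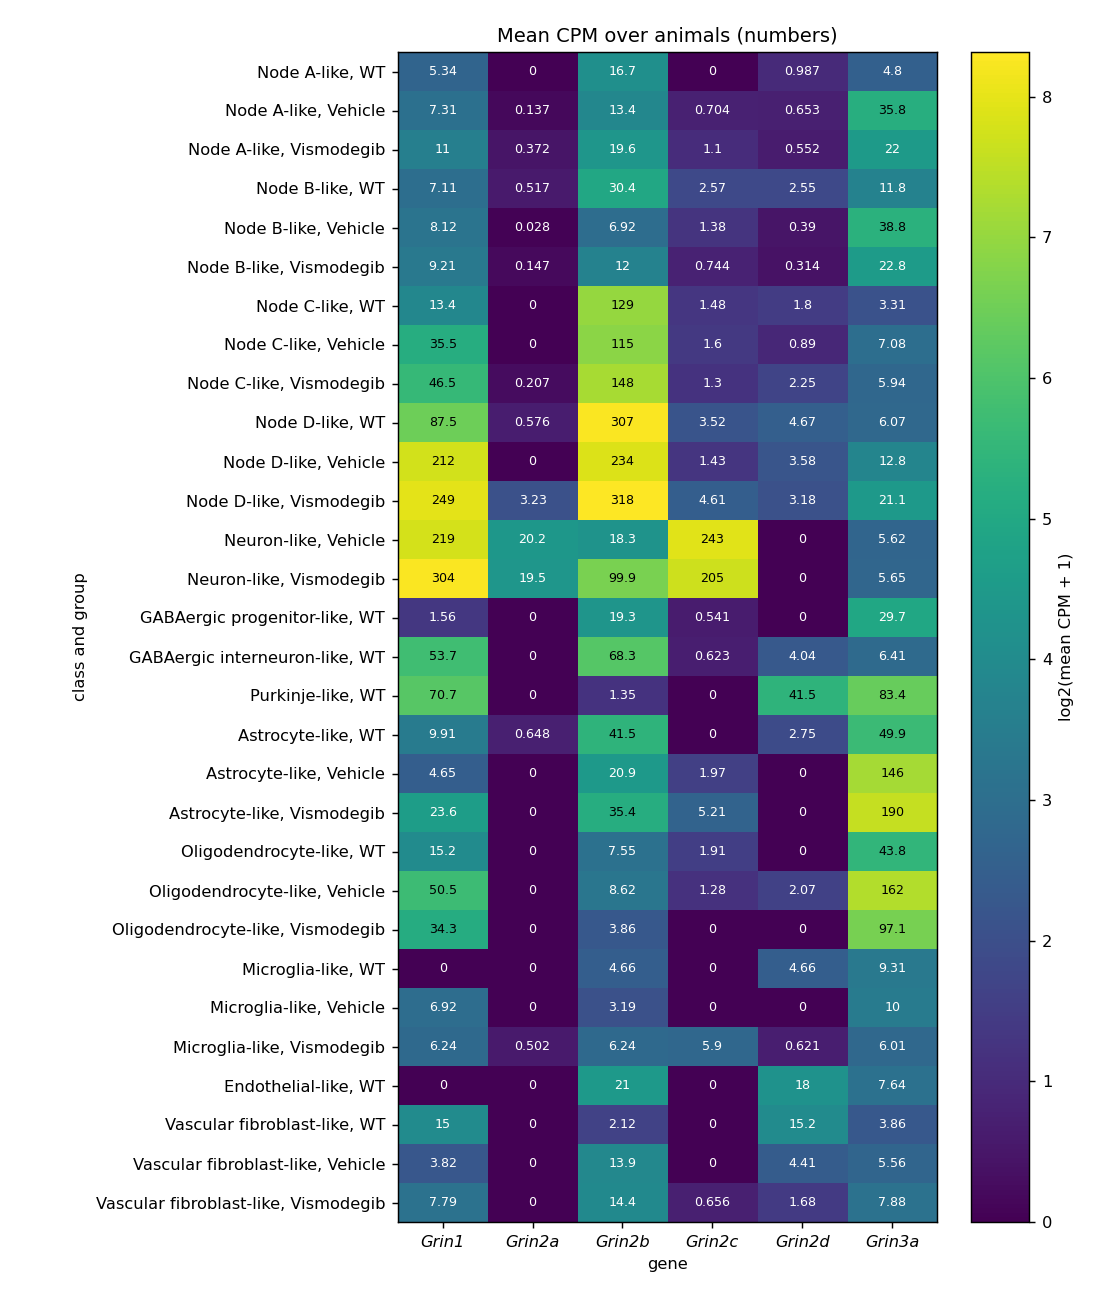
Mean CPM over animals (numbers in the cells, color as log2 of the mean plus 1) of the 6 genes (x axis) in the 30 profiles of class and group (y axis). Grin1 is brightest in the Node D-like and Neuron-like rows, Grin2b in the Node D-like rows, Grin2c in the Neuron-like rows, Grin3a in the tumors' glial rows and Grin2d in the Purkinje-like row.

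Other genes with similar profiles were ranked by Spearman's rho across the same 30 profiles among 13537 genes, a description in which profiles share animals and sparse genes are noisy. Nearest to Grin1 were Sgip1 (0.92), Tspyl4 (0.91), Akap11 (0.91), Scn2a1, a voltage-gated sodium channel (0.90), and Armc6 (0.90). Nearest to Grin2b were the zinc-finger genes Zfp521 (0.89) and Zfpm2 (0.83) with Mia (0.87), Rgs17 (0.82) and Fxyd6 (0.82). Nearest to Grin3a were Ndufaf7 (0.80), Nkx6-2, a transcription factor of oligodendrocytes (0.79), Psph, the last enzyme of L-serine synthesis (0.76), 2810428I15Rik (0.76) and Ngef (0.76). The other members were too sparse for a weak likeness to mean much, with Tnnc2 (0.77) nearest to Grin2c, Mesdc1 (0.74) to Grin2d and Ltbp2 (0.67) to Grin2a.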

How the data were processed

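Drop-seq libraries were made from 15 mice, and the authors deposited UMI counts per gene and cell barcode for each library. The submitters' processing notes name bcl2fastq 2.18, STAR (given as 5.4b) and Seurat 2.3.0. The paper's methods name Drop-seq Tools and a different STAR version, with reads aligned to mm10 extended by Cre and SmoM2/EYFP, for tumors after a first alignment to a mixed mouse and human reference. WT cells went through a PDMS device, while a glass device served for the tumors, whose runs also held spiked-in human cells that the authors removed. Strand use in counting is not stated in those sources.

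From the deposited counts, barcodes with at least 500 UMIs and 500 genes were taken. Those over 5 SD above the library's median in UMIs, genes or mitochondrial share of UMIs were left out. No doublet caller was run. WT and tumor cells were clustered separately with igraph 0.11.9 (Louvain, resolution 0.8, 30 neighbors) on genes with mean 0.125 to 3 and dispersion z of at least 0.5, with 51 genes (the members and the lists) and, besides them, hemoglobin genes held out. Clusters were named from markers. A class outside the granule lineage needed a mean log2 fold over 2 and at least 2 markers among the leading 10 genes. This naming rule and the removal of hemoglobin genes were settled after clusters had been seen. The members and gene lists were chosen with earlier results of these data known.

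Counts were summed per animal and class for sums of at least 10 cells, with the animal as the replicate. Genes were tested with edgeR 4.0.16 (quasi-likelihood, TMM, its filter on low counts, Benjamini-Hochberg over all genes, threshold 0.05), with the animal as a block between classes. Log2 fold changes are fitted values. Each edgeR SE was computed as the absolute log2 fold change over the square root of the test's F statistic. The script was tested on simulated counts first. GluN2 shares were compared by exact permutation. Percentages of cells and of pooled GluN2 UMIs carry exact Clopper-Pearson intervals at 95%, which leave out the spread between animals. Where a class held no UMI, 3 UMIs were taken as the floor. All members are described. Of each list, genes called were named by size of change, at most 8 per list and those averaging at least 3 in log2 CPM. Comparisons of vehicle with WT within stages and in glia, of Neuron-like with Node D-like cells, and the interaction were added after the levels had been seen, as were the alternatives with hemoglobin genes in the clustering, with Neuron-like cells counted among CGNP-like cells and without the WT Node A-like cluster led by Ttr. Other alternatives were DESeq2 1.42.0, RLE size factors, no filter on low counts, a limit of 4 SD, resolution 1.2, a replicate block, the serial number in the titles (up to 10 against from 12) as a covariate, and leaving out each animal. Results for a few genes are not reported here.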

Additional observations from a re-analysis of the deposited data

Results flagged for a closer look

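In 68 groups of 4 or 5 animals, the highest or lowest animal was compared with the rest by Dixon's criterion, by which chance marks about 1 in 20 groups, and 5 values stood apart. Grin3a in Astrocyte-like cells of vismodegib replicate 2 was 402.3 CPM, with the nearest animal at 179.9 CPM. Grin1 in Node A-like cells of vehicle replicate 3 was 13.1 CPM (nearest 6.8 CPM), and Grin1 over all cells of WT replicate 3 was 18.0 CPM (nearest 20.9 CPM). Grin2c in CGNP-like cells was 3.7 CPM in vehicle replicate 1 (nearest 1.0 CPM) and 4.3 CPM in vismodegib replicate 2 (nearest 1.8 CPM), both from few UMIs.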

How the results depend on the processing

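Of 973 values recomputed under an alternative, 946 kept their side of the threshold (for counts, stayed within 1.5 times). A further 13 lost a call, 5 gained one, 9 counts moved, and 0 changed sign with a call in either fit. Uncalled differences could change sign, among them Grin1 of CGNP-like cells between vehicle and WT (-0.1 to 0.33). Members called between Purkinje-like and Node D-like cells, 1 in all, became 3 with no filter on low counts, and 1 to 3 when a WT animal was left out. Members called between interneuron-like and Node D-like cells, 2 in all, became 1 with DESeq2, 1 at resolution 1.2, 1 with no replicate block and 1 to 2 when a WT animal was left out; Grin1 lost its call there, and its cause was not tested. In glia, 2 calls became 1 with the limit of 4 SD, where Grin3a of Astrocyte-like cells did not pass the filter. Over all tumor cells, Grin3a was called with DESeq2 (-0.53, adjusted p = 0.03926) and without vismodegib replicate 2 (-0.62, adjusted p = 0.04957). Same-numbered vehicle- and vismodegib-treated tumors correlated at -0.28 to 0.392 (2 of 5 pairs over 0.1, 2 best with their own number), and WT and vehicle at -0.312 to 0.086, so that they were not treated as pairs. Same-numbered tumors have neighboring serial numbers in the titles, and the labels do not say what these mark. With a replicate block, the same 3 members were called in CGNP-like cells between treatments (Grin1 1.95, Grin2b 1.79, Grin3a -0.67), 0 in each stage and 2 over all cells. Grin2a, Grin2c and Grin2d had too few UMIs for tests in most classes, and at these depths small differences in them were not detectable.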
